A study of Mus musculus with 15 samples.

Results

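The genes described here are the insulin-like growth factor binding proteins Igfbp1 to Igfbp7 and Pappa, a protease that cuts some of them. They were taken by name: every array probe whose gene name equals one of these 8 symbols was used, which gave 12 probes for 8 genes out of 38457 probes tested for 26117 gene names. Igfbp1, Igfbp2, Igfbp6 and Igfbp7 had 1 probe each, and Igfbp3, Igfbp4, Igfbp5 and Pappa had 2.

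The arrays measured hippocampal total RNA in a study of contextual fear extinction, the loss of freezing in mice brought back repeatedly to a box where they once received a footshock. All mice were males of C57BL/6J, an inbred strain, in 3 groups of 5 arrays. The E1 mice had been conditioned and were sampled 1 h after their first return to the box without shock, and the ELF mice 1 h after the return at which freezing had fallen, which was trial 5 of a series spaced 24 h apart. The controls received no conditioning. The design text describes control mice as placed in the box without training, while their sample names call them naive; both accounts are kept here, and neither gives the time from their last handling to RNA isolation. Ages are not given in the labels. The design text calls the 5 samples of each group biological replicates.

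Insulin-like growth factors (IGF-I and IGF-II) are secreted peptides that act on neurons, glia and vessels through the IGF-I receptor. Outside the cell most of the peptide is held by binding proteins, which prolong its life, keep it from the receptor, or release it near the receptor after they are cut by proteases such as pappalysin, the product of Pappa. Igfbp7 belongs to the wider family, binds IGFs with low affinity and is known as a product of blood vessel walls, while Igfbp2 is made in the adult brain largely by the choroid plexus, the secretory epithelium of the ventricles.

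Among the members Igfbp7 and Igfbp2 had the largest differences between ELF and control, though only that of Igfbp7 passed the threshold used below. The 250 bases before the transcription starts of both genes are shown first, from RefSeq on GRCm38.p6, 5′ to 3′ on the gene's strand. Capitals mark each GC box, searched as GGGCGG on both strands. The Igfbp7 window lies at chr5:77408046-77408295 on the minus strand and the Igfbp2 window, before the upstream of its 2 listed starts, at chr1:72824230-72824479 on the plus strand.
Igfbp7: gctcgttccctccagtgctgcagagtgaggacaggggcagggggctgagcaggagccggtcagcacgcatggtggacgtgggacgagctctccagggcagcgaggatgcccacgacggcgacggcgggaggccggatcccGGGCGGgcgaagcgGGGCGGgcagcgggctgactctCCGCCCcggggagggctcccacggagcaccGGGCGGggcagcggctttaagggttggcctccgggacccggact
Igfbp2: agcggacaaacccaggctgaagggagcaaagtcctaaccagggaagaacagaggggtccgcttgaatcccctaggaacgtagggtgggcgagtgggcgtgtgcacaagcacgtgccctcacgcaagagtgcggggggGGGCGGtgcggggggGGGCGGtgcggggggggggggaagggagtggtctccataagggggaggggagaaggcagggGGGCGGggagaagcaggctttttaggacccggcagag
The Igfbp7 window held 4 GC boxes, 26 CpG dinucleotides and 74% G and C, and the Igfbp2 window 3 GC boxes, 14 CpG dinucleotides and 67.2% G and C. The 8 promoter windows available for the members cover 7 genes, as Igfbp2 has 2 and Pappa has none. A GC box was found in 2 of the 8, these 2, against 32.7% of 32851 mouse promoter windows of the same length. The Igfbp2 window also held the E-box CACGTG once, found in 6.02% of all windows, and none of the 8 windows held the cyclic AMP response element TGACGTCA (1.55% of all windows). On both strands the AP-1 sequence TGANTCA was found only before the downstream start of Igfbp2 among these 8 windows (6.75% of all windows), and the TATA box TATAAA only in those of Igfbp4 and Igfbp6 (12.4%). These are matches of letters and not sites of binding, and their relation to the differences between groups was not tested. In the RefSeq gene order Igfbp2 and Igfbp5 are direct neighbours on chromosome 1, and Igfbp1 and Igfbp3 on chromosome 11.

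The probes were 60-mers, of which the first 30 bases are printed here for the 3 probes on which the later comparisons turn: the Igfbp7 probe, and both Igfbp5 probes, which did not follow each other. In these no letters are capitalised.
Igfbp7: taacccactaacactttattacagccagct
Igfbp5, brighter probe: cacatcacatattactgtagctctctatag
Igfbp5, dimmer probe: aatagaattttccttggtgtctcccatcta
On the mouse build mm7 the Igfbp7 probe lies on chromosome 5 from 77280659 to 77280718, and the Igfbp2 probe on chromosome 1 from 73093964 to 73094023. The brighter Igfbp5 probe lies on chromosome 1 from 73100116 to 73100175 and the dimmer from 73102653 to 73102712. The exon or untranslated region that each probe reads was not determined here.

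Values below are log2 intensities relative to the 75th percentile intensity of their own array, which lay between 1441 and 2932. Because probes differ in brightness for reasons of sequence, a level of 1 gene is not compared with that of another. Differences are differences of group means with the standard error (SE) of a limma fit over all 15 arrays. A probe was called where its p, adjusted by Benjamini-Hochberg over the 38457 probes, was under 0.05. All 12 member probes passed the filter on dim spots, none had a saturated spot, and 11 were well above background on every array. Of the 4 slides, the first carried controls 1 to 4, slide 2 carried control 5 with E1 1 to 3, slide 3 carried E1 4 and 5 with ELF 3 and 4, and slide 4 carried ELF 1, 2 and 5. No slide held both ELF and control arrays. A fit with a separate level for each slide (slide as a fixed block) therefore joins ELF to control only through E1. It rests there on 1 control array on slide 2 and 2 ELF arrays on slide 3. Slides 2 and 3, which hold more than 1 group, allow within-slide values, which are given where they touch a result. All 11 measured markers of hippocampal neurons, among them Prox1 and Neurod6, were well above background on every array. Array ELF 3 stood apart in transcripts of the choroid plexus: Ttr, the defining transthyretin transcript, was -1.81 there and between 3.35 and 4.01 on the other 4 ELF arrays.

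Igfbp7 was the only member called in any of the 3 comparisons. Its level was highest in control and lowest in ELF, with E1 between. In control the values were 2.20, 1.51, 1.67, 1.49 and 1.21 for arrays 1 to 5. In E1 they were 1.30, 1.29, 1.11, 1.26 and 0.94. In ELF they were 0.60, 1.16, 0.32, 0.51 and 0.65. Every ELF value lay below every control value, the E1 values overlapped both groups, and control 5, the control array that shared a slide with E1 arrays, lay inside the E1 range.

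The group means of Igfbp7 were 1.62 ± 0.37 in control, 1.18 ± 0.15 in E1 and 0.65 ± 0.31 in ELF (SD, n = 5). From control to ELF it fell by 0.97 on the log2 scale (SE 0.18, 95% interval -1.35 to -0.59, limma adjusted p = 0.0252), which is 1.96-fold lower. Of the 8 members 1 fell and 0 rose, where 2.36% of all probes were called in this comparison, 0.874% lower and 1.48% higher. Igfbp7 was also the 1 member of 8 whose ELF and control arrays did not overlap on its brightest probe, as was so for 5.02% of all probes (2.69% lower). Without array ELF 3 it fell by 0.89 (adjusted p = 0.0306). The 2 neighbouring steps each missed the threshold: E1 minus control was -0.44 (SE 0.18, adjusted p = 0.305) and ELF minus E1 was -0.53 (SE 0.18, adjusted p = 0.403). E1 and ELF were both compared with the same control arrays, so these comparisons are not independent.

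**Figure D1:**
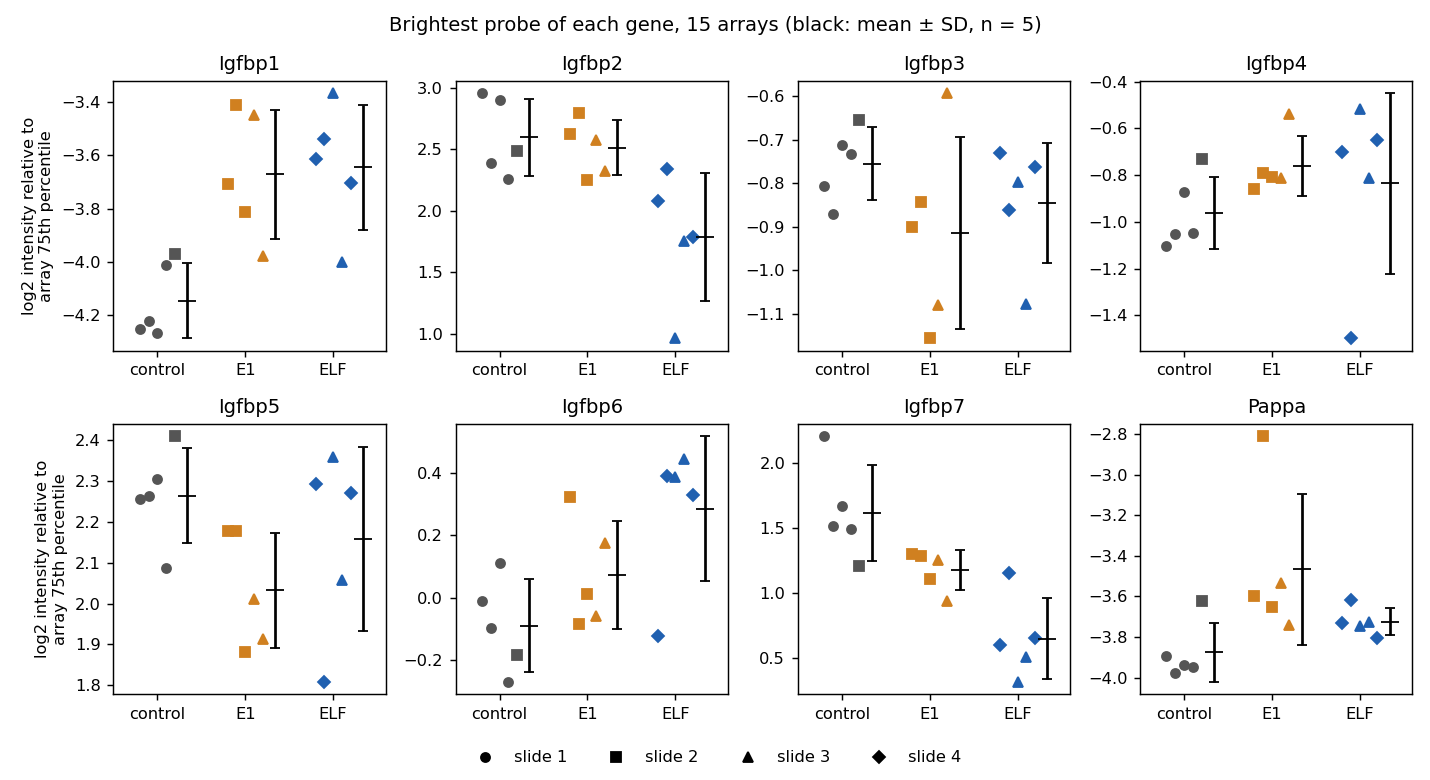
Brightest probe of each of the 8 genes on all 15 arrays, as log2 intensity relative to the 75th percentile of the array. Points are arrays, coloured by group and shaped by slide, and black bars are the mean ± SD over 5 arrays; the 5 ELF points of Igfbp7 lie between 0.32 and 1.16, all below the control points between 1.21 and 2.20.

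The call of Igfbp7 was lost in fits that took slide into account or held fewer arrays, while the difference stayed below 0. With slide as a fixed block the ELF minus control difference was -0.66 (limma adjusted p = 0.299), with slide as a random block -0.86 (adjusted p = 0.964), and in a fit of only the 2 groups -0.97 (adjusted p = 0.121). The threshold was also missed without control 1 (-0.82, adjusted p = 0.0684), control 2 (-0.99, adjusted p = 0.0744), control 3 (-0.96, adjusted p = 0.0968) or control 4 (-0.9997, adjusted p = 0.050035), so that the difference was smaller without control 1 and about as large without the others. In these 4 fits 43, 0, 0 and 106 of all probes were called, against 907 with all arrays. The call was kept without control 5 or without any 1 of the 5 ELF arrays. Within slide 2 the mean of 3 E1 arrays minus the 1 control array was 0.02, and within slide 3 the mean of 2 ELF minus 2 E1 arrays was -0.69, while the median of all probes there was -0.18. The fixed-block ELF minus control value is made of these 2 steps alone, as slides 1 and 4 each held 1 group. The ELF arrays of slide 3 include ELF 3. By slide and group, the Igfbp7 mean was 1.72 for control on slide 1, 1.21 for control on slide 2, 1.23 for E1 on slide 2, 1.10 for E1 on slide 3, 0.41 for ELF on slide 3 and 0.80 for ELF on slide 4. The ELF means of both slides therefore lay below the E1 mean on either slide, while the E1 mean lay below the control mean across slides and not within slide 2.

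**Figure D2:**
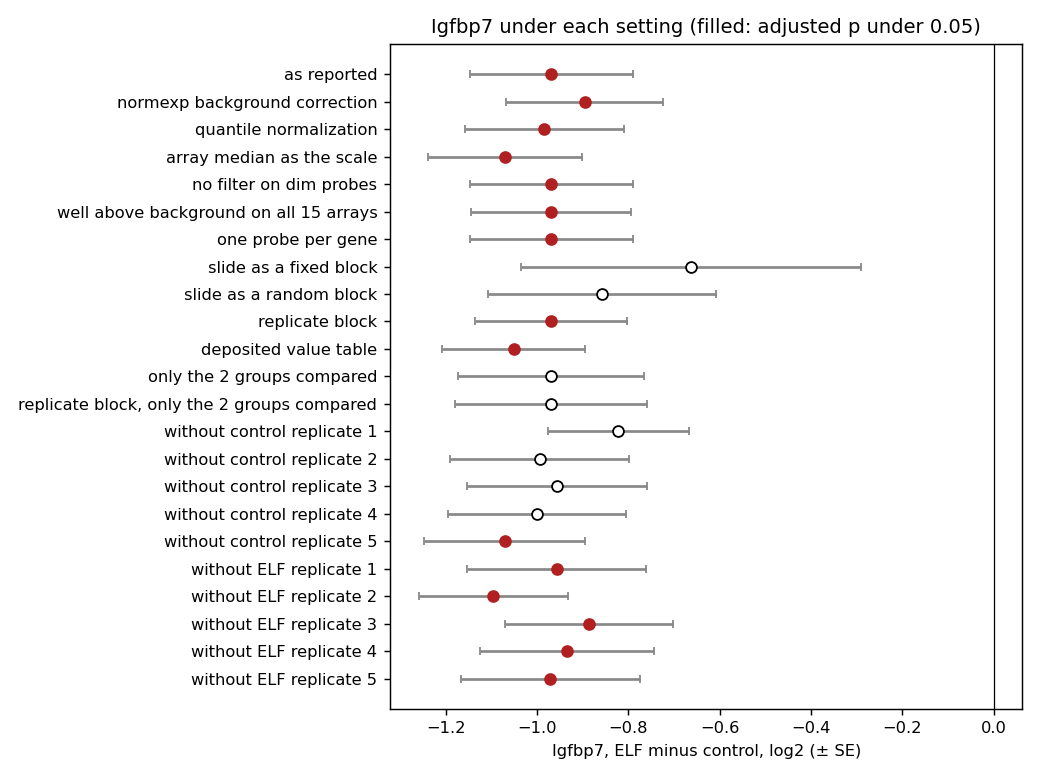
ELF minus control difference of Igfbp7 on the log2 scale (± SE) under the reported fit and 22 alternatives. Filled points have a limma adjusted p under 0.05; all points lie between -1.10 and -0.66, and 8 of the 22 alternatives are open.

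Of 17 measured endothelial markers 8 fell from control to ELF, 0 rose and 9 did not pass the test, with a median of -0.64 against 0.08 for all probes. Of all probes 0.874% were called lower and 1.48% higher in this comparison. Cldn5, a tight junction protein of the blood-brain barrier, differed by -0.74 (limma adjusted p = 0.0285), and Flt1, a receptor for VEGF, by -1.14 (adjusted p = 0.0285). The summed endothelial level, in units of the array's 75th percentile intensity, ran from 24.4 to 39.8 over control, from 21.0 to 24.7 over E1 and from 19.6 to 26.8 over ELF arrays, and none of the 17 was below background on all arrays. From control to E1 1 of the 17, Cldn5, fell (-0.93, limma adjusted p = 0.0282), where 0.104% of all probes were called, and the median of the 17 was -0.39. Of 12 mural cell markers 2 fell from control to ELF, Rgs5 (-0.65, adjusted p = 0.0407) and Mcam (-0.33, adjusted p = 0.0431), the median was -0.19, and the summed level was 20.6 to 23.6 in control and 19.4 to 26.2 in ELF. Without ELF 3, 5 of the 17 endothelial markers fell (median -0.61) and 1 of the 12 mural markers. The fit without ELF 3 called 910 of all probes, 245 of them lower. With slide as a fixed block, where Igfbp7 differed by -0.66, 0 of either list were called: the endothelial median was -0.47 and the mural median -0.31, against -0.23 for all probes, Cldn5 differed by -0.12 and Flt1 by -0.13. These blocked values rest on 1 control array and 2 ELF arrays, joined through E1, so they are a weak measure of the difference. In that fit 190 of all probes were called, 141 of them lower, against 907 in the reported fit. Cldn5 and Flt1 each kept the call in 5 of 10 fits without 1 array. In bulk tissue, fewer cells of a type and less RNA per cell cannot be told apart, and the part of these markers in the Igfbp7 difference was not tested.

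The genes most like Igfbp7 over the 15 arrays, among 22433 gene names well above background on every array, were BC011209 (now Flvcr2, a transporter of brain endothelial cells) with Pearson's r of 0.97, Lama5 (the laminin alpha-5 chain of basement membranes) with 0.96, Slc16a9 (of the monocarboxylate transporter family) with 0.95, Cdh5 (VE-cadherin of endothelial junctions) with 0.94 and Dock6 (an activator of small GTPases) with 0.94. These points share arrays and slides, and part of each r is the common difference between groups. When deviations from the group means were ranked in place of levels, 31 of the 100 genes most like Igfbp7 were the same. In these deviations r was 0.93 for Cdh5, 0.92 for Flvcr2, 0.90 for Lama5, 0.88 for Dock6 and 0.86 for Slc16a9. The highest Igfbp7 value, on control 1, came with the highest Cdh5 value of all arrays, and the lowest, on ELF 3, with the lowest. Since these genes were chosen on the same arrays, their differences between ELF and control are a description with no test: -0.76 for Flvcr2, -0.73 for Lama5, -0.63 for Slc16a9, -0.76 for Cdh5 and -0.52 for Dock6.

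**Figure D3:**
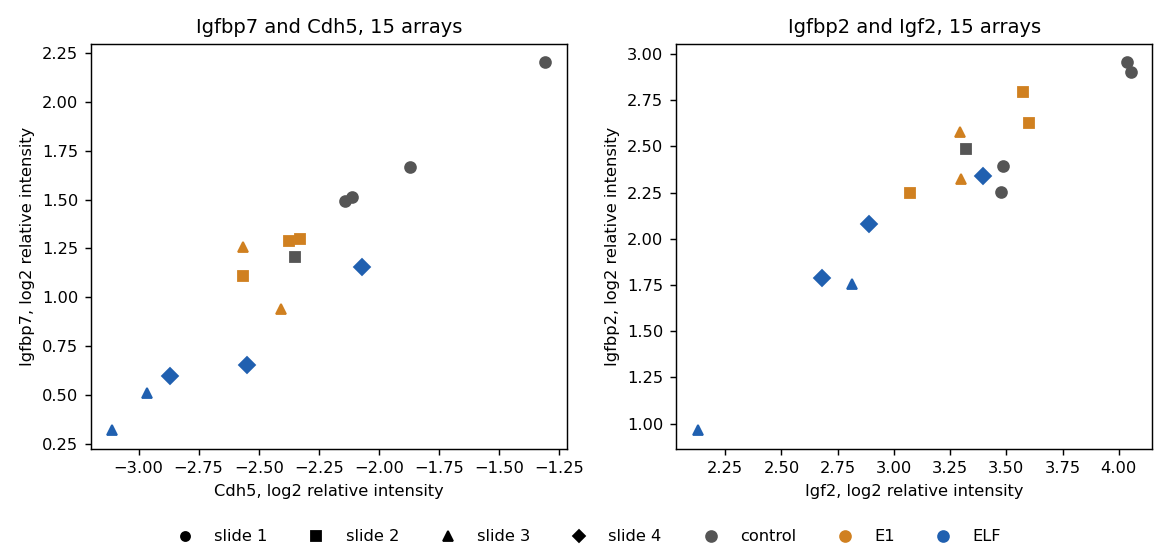
Left, Igfbp7 against Cdh5; right, Igfbp2 against Igf2; both axes in log2 intensity relative to the 75th percentile of the array, 1 point per array, coloured by group and shaped by slide. Control 1 is highest in both genes on the left and ELF 3 is lowest in both genes on each side.

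Igfbp2, a carrier of both IGFs, was lower in ELF on most arrays but was not called. In control its values were 2.95, 2.39, 2.90, 2.25 and 2.49. In E1 they were 2.63, 2.79, 2.25, 2.57 and 2.32. In ELF they were 2.08, 2.34, 0.96, 1.76 and 1.79. The control and E1 values covered nearly the same range, 4 of 5 ELF values lay below all of these, and ELF 3 was by far the lowest.

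The Igfbp2 means were 2.60 ± 0.31 in control, 2.51 ± 0.22 in E1 and 1.79 ± 0.52 in ELF (SD, n = 5). ELF minus control was -0.81 (SE 0.22, 95% interval -1.29 to -0.33, limma adjusted p = 0.0635), ELF minus E1 was -0.73 (SE 0.22, adjusted p = 0.375), and E1 minus control was -0.09 (SE 0.22, 95% interval -0.56 to 0.39, adjusted p = 0.912). Without ELF 3 the ELF minus control difference was -0.61. It passed the threshold without ELF 4 (-0.80, limma adjusted p = 0.0374), under quantile normalization (-0.85, adjusted p = 0.0358), with the array median as the scale (-0.91, adjusted p = 0.0207) and in the authors' deposited value table refitted with limma (-0.90, adjusted p = 0.0173). In that order these fits called 7191, 2530, 1857 and 2549 of all probes, against 907 in the reported fit. With slide as a fixed block ELF minus control was -1.02 (adjusted p = 0.216), and ELF minus E1, which then rests on the 2 ELF and 2 E1 arrays of slide 3, was -1.09 (adjusted p = 0.0339). Those arrays include ELF 3. The blocked ELF minus control value rests on them and on slide 2, which held 1 control array. For ELF minus E1 that fit called 6918 of all probes, 6046 of them lower, against 2 in the reported fit. The median of all probes in it was -0.18.

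All 15 measured markers of the choroid plexus lay below 0 from control to ELF, where 37.5% of all probes did, with a median of -1.14. Of them 1, Cdkn1c, a cell cycle inhibitor, was called (-0.99, limma adjusted p = 0.0485) and 14 did not pass the test, where 0.874% of all probes were called lower. Ttr differed by -1.74 (adjusted p = 0.23) and Folr1, a folate receptor, by -1.14 (adjusted p = 0.181). The summed level of the 15 markers ran from 44.7 to 67.8 over control, from 36.4 to 59.8 over E1, and in ELF was 5.14 on ELF 3 and 34.4 to 38.2 on the other 4 arrays, and all 15 were well above background on every array. Without ELF 3, 13 of the 15 lay below 0, 0 were called and the median was -0.63. Their part in the Igfbp2 values was not tested. The genes most like Igfbp2 over 15 arrays were St6galnac2, a sialyltransferase (r = 0.96), Igf2, which encodes IGF-II (0.95), Sostdc1, a secreted antagonist of BMP and Wnt signals that is also in the choroid plexus list (0.95), Slc2a12, a glucose transporter (0.95), and C1qtnf5, a secreted protein (0.94). By deviations from the group means Igf2 ranked highest of 22433 genes, with r of 0.93, and 57 of the 100 most alike genes were shared between both rankings.

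Of the 28 pairs of members, Igfbp2 and Igfbp7 had the highest r over 15 arrays: it was 0.86, and 0.76 for deviations from the group means, or 0.66 without the 2 arrays farthest from the median of Igfbp2 deviations. Both were low on ELF 3 and high on control 1. Igfbp4 ran the other way from Igfbp7, with r of -0.56 and of -0.76 for deviations from group means. For Igfbp5, the genomic neighbour of Igfbp2, r with Igfbp2 was -0.09, and -0.19 for deviations from the group means, but 0.62 for deviations without the 2 arrays farthest from the median of Igfbp2, so its sign rests on those arrays.

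Igfbp1, best known as a liver product that answers to insulin and fasting, had a probe on chromosome 11, 7154447 to 7154506 of mm7, and was higher after extinction trials on most arrays. In control the values were -4.25, -4.22, -4.27, -4.01 and -3.97. In E1 they were -3.71, -3.41, -3.81, -3.45 and -3.98. In ELF they were -3.62, -3.54, -3.37, -4.00 and -3.70. In each extinction group 4 of 5 arrays lay above all controls and 1 array, E1 5 or ELF 4, both of slide 3, lay at the upper end of the controls.

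The Igfbp1 difference was 0.47 for E1 minus control (SE 0.13, 95% interval 0.19 to 0.76, limma adjusted p = 0.136) and 0.50 for ELF minus control (SE 0.13, 95% interval 0.21 to 0.79, adjusted p = 0.0595), and neither was called. ELF minus E1 was 0.03 (SE 0.13, 95% interval -0.26 to 0.31, adjusted p = 0.966). The ELF minus control difference passed the threshold without ELF 4 (0.59, adjusted p = 0.0141), without control 5 (0.54, adjusted p = 0.0351) and with normexp background correction (0.40, adjusted p = 0.0456), and with slide as a fixed block it was 0.35 (adjusted p = 0.552). Of all probes, 7191 were called without ELF 4, 3112 without control 5 and 993 with normexp, against 907 in the reported fit. Same-numbered control and E1 arrays had correlated deviations, though E1 2, E1 3 and E1 4 correlated more closely with a control of another number. The replicate number was therefore tried as a block in a fit of only these 2 groups, an alternative chosen after seeing the data. In it E1 minus control was 0.47 (limma adjusted p = 0.0497). That fit called 4471 of all probes, against 40 in the reported fit.

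Igfbp6 (probe on chromosome 15, 102135489 to 102135549 of mm7), which prefers IGF-II over IGF-I, was -0.01, -0.10, 0.11, -0.27 and -0.18 in control and 0.32, -0.09, 0.01, -0.06 and 0.18 in E1. In ELF it was -0.12, 0.39, 0.39, 0.45 and 0.33. Of the ELF arrays 4 lay above every control and E1 array, and ELF 1 lay among the controls. ELF minus control was 0.38 (SE 0.12, 95% interval 0.11 to 0.64, limma adjusted p = 0.097), ELF minus E1 was 0.21 (adjusted p = 0.58) and E1 minus control 0.16 (adjusted p = 0.611). In none of the 22 alternative settings was the ELF minus control difference called, and it was above 0 in all of them.

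**Figure D4:**
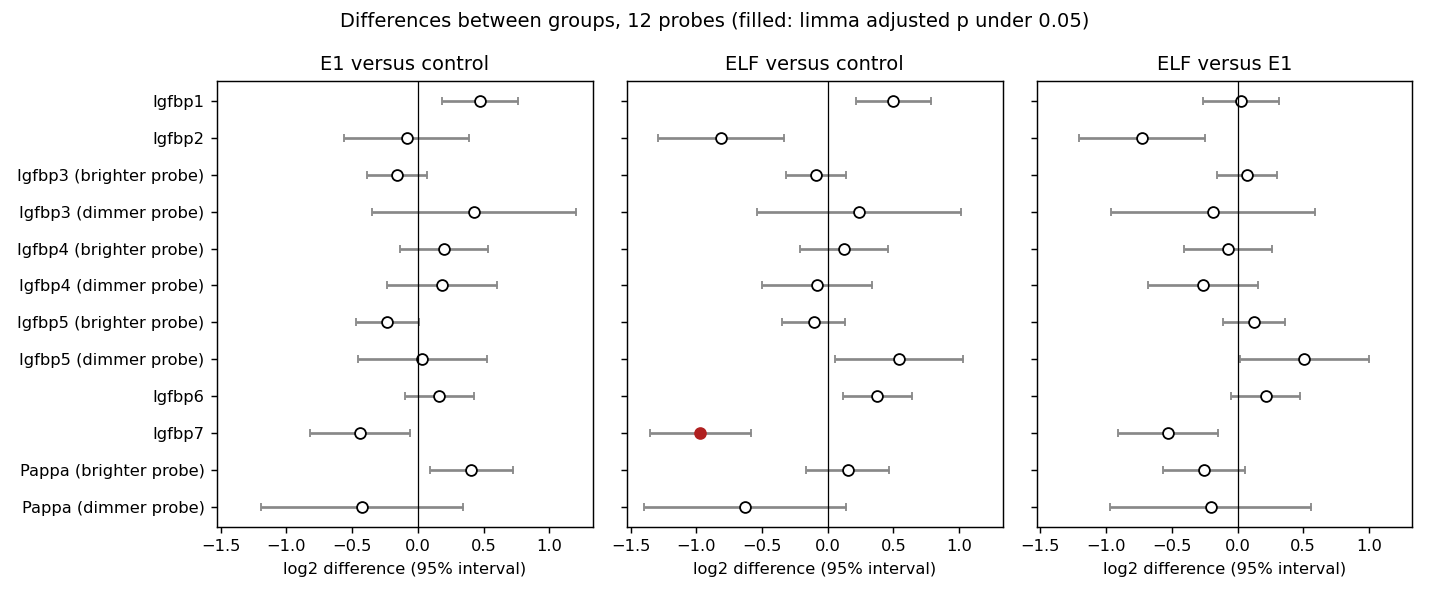
Differences between groups in log2 units for the 12 member probes, with 95% intervals from the limma fit over 15 arrays. The 1 filled point, Igfbp7 in ELF versus control at -0.97, has an adjusted p under 0.05. The intervals of Igfbp2, Igfbp1, Igfbp6 and the dimmer Igfbp5 probe in that comparison also leave out 0 without adjustment.

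Igfbp5 and Igfbp4, binding proteins found in bone and in many neurons and glia, showed no called change on any probe in the reported fit. The brighter Igfbp5 probe had means of 2.26 ± 0.12 for control, 2.03 ± 0.14 for E1 and 2.16 ± 0.23 for ELF (SD, n = 5), with E1 minus control at -0.23 (SE 0.11, limma adjusted p = 0.397) and ELF minus control at -0.11 (SE 0.11, 95% interval -0.34 to 0.13, adjusted p = 0.582). On the dimmer probe of the same gene ELF minus control was 0.54 (SE 0.23, adjusted p = 0.173), against the direction of the brighter one, and its r with that probe was -0.25 over 15 arrays. Its ELF values were -2.07, -1.81, -3.23, -2.75 and -1.99. The 3 high values were the 3 arrays of slide 4, whereas ELF 3 and ELF 4 on slide 3 lay no higher than the control range of -3.16 to -2.71. On slide 4 between 95.8% and 97.2% of all spots were well above background, and on slide 3 between 83.5% and 93.1%. With slide as a fixed block the dimmer probe differed by -0.29 between ELF and control, and without ELF 3 it passed the threshold at 0.76 (adjusted p = 0.0445).

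**Figure D5:**
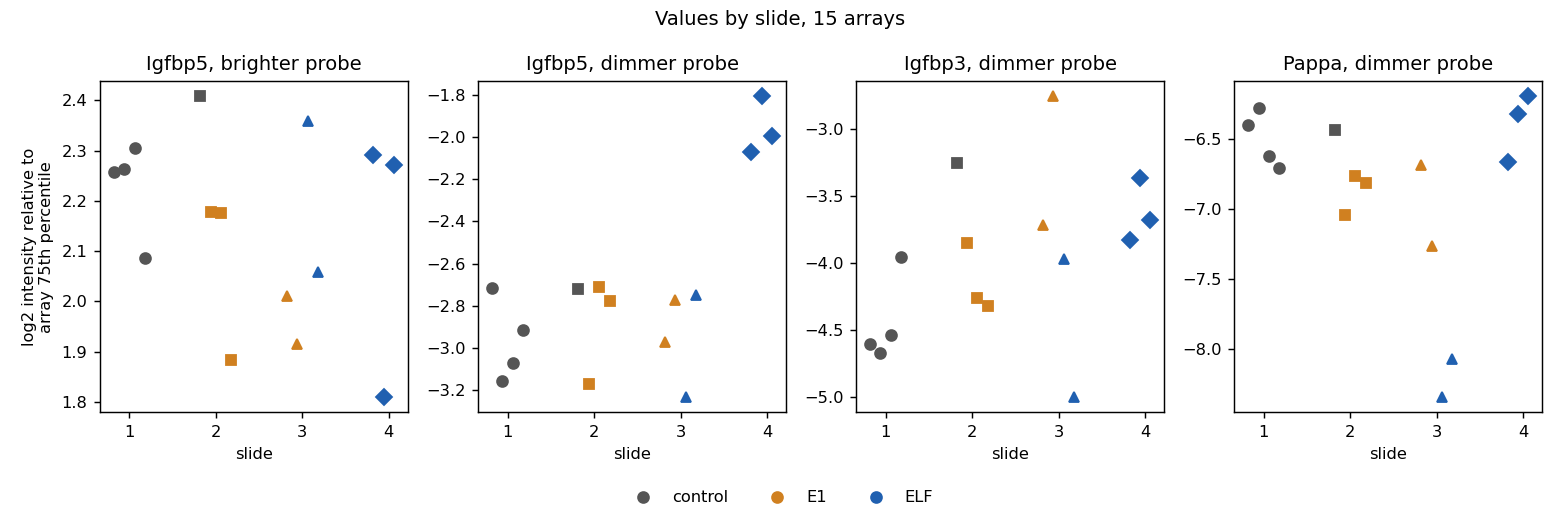
Values by slide for the 2 Igfbp5 probes and the dimmer probes of Igfbp3 and Pappa, as log2 intensity relative to the 75th percentile of the array, 1 point per array, coloured by group. For the dimmer Igfbp5 probe the 3 arrays of slide 4 lie at -2.07 or higher and all other arrays at -2.71 or lower, while the brighter probe shows no such step.

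The genes most like the brighter Igfbp5 probe were less close than for Igfbp7 or Igfbp2: the highest r was 0.82, with the unnamed transcript AK086839, followed by Pxdn, a peroxidase that crosslinks collagen IV (0.80), Trim56, a ubiquitin ligase (0.79), Rbl2, a relative of the retinoblastoma protein (0.78), and Bace1, the beta-secretase (0.77).

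Igfbp4 ranged from -1.10 to -0.73 in control, from -0.86 to -0.54 in E1 and from -1.50 to -0.52 in ELF on its brighter probe (chromosome 11, 99161059 to 99161118 of mm7, the dimmer at 99157316 to 99157375). The groups overlapped, and ELF 2 was the lowest of all arrays on this probe and on the dimmer one (-3.07). ELF minus control was 0.13 (SE 0.16, 95% interval -0.21 to 0.46, limma adjusted p = 0.645) on the brighter and -0.08 (adjusted p = 0.828) on the dimmer probe, whose r with each other was 0.64.

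Igfbp3, the main carrier of IGFs in blood, did not pass the threshold in any comparison of the reported fit either. Its brighter probe (chromosome 11, 7158599 to 7158658 of mm7) averaged -0.76 ± 0.08 over control, -0.92 ± 0.22 over E1 and -0.85 ± 0.14 over ELF arrays (SD, n = 5), and ELF minus control was -0.09 (SE 0.11, 95% interval -0.32 to 0.14, limma adjusted p = 0.628). The dimmer probe, whose listed coordinates span 1010 bases for a 60-mer, varied from -5.00 to -2.75 over the arrays. Its standard error was 0.36, and ELF minus control was 0.24 (adjusted p = 0.715) in the reported fit and -2.14 (adjusted p = 0.0893) with slide as a fixed block. For ELF minus E1 the slide block gave -1.25 on this probe (adjusted p = 0.0398), which passed the threshold. In that comparison the slide block called 6918 of all probes, 6046 of them lower, and the median of all probes was -0.18. For E1 minus control the replicate block in a fit of only these groups gave 0.42 (adjusted p = 0.0368), which also passed. The replicate block fit called 4471 of all probes.

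Pappa encodes the protease that cuts IGFBP-4 and, less dependent on bound IGF, IGFBP-5. Its brighter probe (chromosome 4, 64785567 to 64785626 of mm7) was -3.90, -3.97, -3.94, -3.95 and -3.62 in control and -3.60, -2.81, -3.65, -3.53 and -3.74 in E1. In ELF it lay between -3.80 and -3.62. E1 minus control was 0.41 (SE 0.15, limma adjusted p = 0.239) and was 0.24 without E1 2, the array that stood highest. ELF minus control was 0.15 (SE 0.15, 95% interval -0.16 to 0.46, adjusted p = 0.55). The dimmer Pappa probe was well above background on 3 control, 0 E1 and 3 ELF arrays, the last all of slide 4, so its fitted differences are no measured fold.

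Of the 8 members' brightest probes, 4 lay above and 4 below 0 in each comparison, and the median difference was 0.04 for E1 versus control, 0.02 for ELF versus control and -0.02 for ELF versus E1. Over all probes the medians were 0.04, 0.08 and 0.03, and 41.9%, 37.5% and 43.0% of probes lay below 0. From control to E1 0 of 8 members were called, where 0.104% of probes were, 0 of 8 had arrays of the 2 groups that did not overlap, where 3.64% of probes had, and 3 of 8 had an unadjusted limma p under 0.05, where 13.1% of probes had. From E1 to ELF 0 of 8 were called, where 0.0052% of probes were, 0 of 8 had groups that did not overlap (2.14% of probes), and 2 of 8 had an unadjusted limma p under 0.05, where 9.98% had. From control to ELF 4 of 8 had an unadjusted limma p under 0.05, against 23.4% of probes.

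Beyond the members, 24 of 25 further genes of the IGF system that were listed (ligands, receptors, adaptors, pappalysin inhibitors and related secreted proteins) were measured. From control to ELF 1 of 24 rose, 1 fell and 22 were not called, where 1.48% of all probes were called higher and 0.874% lower. Of the differences 16 lay above 0 and 8 below, with a median of 0.18, while 37.5% of all probes lay below 0 with a median of 0.08. In the other 2 comparisons 0 of 24 were called, where 0.104% (E1 versus control) and 0.0052% (ELF versus E1) of all probes were. The one that fell was the ligand gene Igf2, which went from 3.67 ± 0.34 in control to 2.78 ± 0.46 in ELF (SD, n = 5), a difference of -0.89 (SE 0.21, limma adjusted p = 0.046). The one that rose was Stc1, encoding stanniocalcin-1, an inhibitor of pappalysin, from -4.70 to -3.85, a difference of 0.85 (SE 0.20, adjusted p = 0.0453). With slide as a fixed block Igf2 differed by -0.73 (adjusted p = 0.36) and Stc1 by -0.32 (adjusted p = 0.593), the latter against its direction without the block. These blocked values rest on 1 control array and 2 ELF arrays, joined through E1. Igf2 and Stc1 each kept the call in 3 of 10 fits without 1 array, and Igf2 lost it without ELF 3 (-0.73, adjusted p = 0.0603). Igf1 differed by 0.26 (adjusted p = 0.403), the receptor Igf1r by -0.24 (adjusted p = 0.277) and Igf2r, which clears IGF-II, by -0.12 (adjusted p = 0.608), and none was called.

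Of the lists for other cell types, 1 gave a call between ELF and control, where 2.36% of all probes were called. The median of all probes was 0.08, and 37.5% of all probes lay below 0. Of 10 astrocyte markers (Gfap 0.03, Aqp4 -0.28) 1 rose, S100b (0.33, limma adjusted p = 0.0497), and without ELF 3 none; 7 lay above 0 and the list's median was 0.12. Of 15 meningeal fibroblast markers (Dcn -0.30, Col1a1 -0.48) 0 were called, 7 lay above 0 and 8 below, and the median was -0.0045. Of 9 microglial markers (Cx3cr1 -0.28, Csf1r 0.25) 0 were called, 7 lay above 0 and the median was 0.23. Of 10 oligodendrocyte markers (Mbp -0.26) 0 were called, 6 lay above 0 and the median was 0.03. Of 11 hippocampal neuron markers (Prox1 0.21, Neurod6 0.13) 0 were called, 5 lay above 0 and 6 below, and the median was -0.06. Of 9 thalamus and habenula markers (Tcf7l2 0.15, Ramp3 0.49) 0 were called, 4 lay above 0 and 5 below, and the median was -0.03. From control to E1 the mural list (Rgs5 -0.19, Pdgfrb -0.22) gave 0 calls and the thalamus and habenula list 1, Ramp3, which rose by 0.86 (limma adjusted p = 0.0431). In that comparison 0.104% of all probes were called.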

How the data were processed

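Per the labels' protocols, TRIzol RNA of high integrity was amplified and labelled with Cy3 for 1-colour Agilent arrays. Per the file headers, Feature Extraction 9.5.3.1 gave the deposited intensity values of 45018 spots, namely a mean, a background and a processed signal, and other columns hold 0 or 1 flags, with probe coordinates on mm7. The authors' deposited table of log2 values (medians 8.68 to 8.92 per array) followed log2 of the mean intensity (r at least 0.996). How that table was normalized is not stated in the labels or headers, and the submitters' processing notes name limma.

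The 1639 control spots and outlier spots were left out. Each log2 processed intensity was set relative to its array's 75th percentile, spots of a probe were averaged to 41174 probes, and probes well above background on at least 5 of 15 arrays were kept (38457). The linear models of limma 3.58.1 (R 4.3.3, lmFit, eBayes, 2-sided) were fitted to 3 groups without covariates, with Benjamini-Hochberg adjustment over all probes. The fit was run on simulated data in which every array varied independently. That simulation cannot show how the fit behaves where slides differ. The brightest probe stands for a gene in counts of genes. Between 83.5% and 97.2% of spots were well above background, and the number of arrays limits the precision. Arrays within a group correlated at r of 0.95 to 0.997, and none were identical.

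Genes were named by rule: all members with every probe, then Igf1, Igf2, Igf1r, Igf2r and called genes of the IGF system list, the 5 genes most like Igfbp7, Igfbp2 and Igfbp5, and the first 2 of each marker list, of which 1 gene is not reported here. Mcam, Cdkn1c and S100b fall outside the rule and were named after their values were seen, because their lists gave 1 or 2 calls. The members and lists were chosen with earlier results of these data known. Through accessions, 11 of 12 member probes matched RefSeq.

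Slides were read from array identifiers and treated as batches. Alternatives were normexp, quantile and median scaling, no filter, a filter on all 15 arrays, 1 probe per gene, slide as a fixed or random block (correlation 0.45), replicate number as a block, the deposited log2 table, fits of 2 groups, and leaving out each array; gene lists were also recomputed without ELF 3 and with the slide block, chosen after seeing the data. Same-numbered control and E1 arrays had correlated deviations (0.15 to 0.34 in 5 of 5 pairs), so the block was also fitted to these 2 groups, an alternative chosen after seeing the data. The pairing comes from the data and not from the labels. E1 2, E1 3 and E1 4 correlated best with controls 3, 2 and 5, and not with the control of their own number. For ELF the same-number correlations ran from -0.48 to 0.39.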

Additional observations from a re-analysis of the deposited data

Results flagged for a closer look

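In 4 of 36 sets of 5 arrays (12 member probes in 3 groups) 1 array lay far from the other 4 by Dixon's criterion, where chance gives about 1 in 20. On the brighter Igfbp4 probe E1 5 was highest at -0.54, with the other E1 arrays between -0.86 and -0.79. Igfbp6 was lowest on ELF 1 at -0.12, with the other ELF arrays between 0.33 and 0.45. The brighter Pappa probe was highest in control on control 5 at -3.62, with the others between -3.97 and -3.90. In E1 it was highest on E1 2 at -2.81, with the others between -3.74 and -3.53.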

How the results depend on the processing

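For Igfbp7 in ELF versus control, 14 of 22 alternatives kept the call, 8 lost it, and none changed the sign (-1.10 to -0.66). With slide as a fixed block the median of all probes was -0.04 for E1 versus control, -0.23 for ELF versus control and -0.18 for ELF versus E1, so blocked values are to be read against these. The blocked ELF versus control values rest on 1 control array and 2 ELF arrays, joined through E1. The cause of the changes below was not tested.

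In E1 versus control, probes called were 40 in the reported fit, 535 with quantile normalization (438 higher, 97 lower, against 27 and 13), 360 with the array median (312 and 48), 268 in the deposited table (208 and 60), 63 with all 15 arrays above background, 4 with slide fixed, 0 with slide random, 2 with the replicate block, 4471 with the replicate block in 2 groups, and 5 to 1633 without 1 array. In ELF versus control they were 907, then 2530 with quantile (1390 and 1140, against 571 and 336), 1857 with the median (966 and 891), 2549 in the deposited table (1085 and 1464), 562 with 1 probe per gene, 190 with slide fixed, 0 with slide random, 287 with the replicate block, 0 in fits of 2 groups with or without it, and 0 to 7191 without 1 array. In ELF versus E1 they were 2, then 0 with normexp, median, slide random, replicate block, deposited table and 2 groups with or without the replicate block, 1 with quantile or no filter, 6918 with slide fixed, and 0 to 15 without 1 array. Member genes called in ELF versus control were 1, then 2 under normexp, quantile, median and the deposited table, 0 with slide fixed, slide random or 2 groups with or without the replicate block, and 0 to 3 without 1 array (3 without ELF 4, 2 without control 5). Of all probes, 7191 were called without ELF 4, 3112 without control 5 and 993 under normexp, against 907 in the reported fit. In ELF versus E1 slide fixed gave 1, Igfbp2, and in E1 versus control the replicate block in 2 groups gave 1, Igfbp1. With the replicate block over 15 arrays Igfbp7 stayed called in ELF versus control (adjusted p = 0.0434), and in 2 groups it did not (adjusted p = 0.334).

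No result that changed sign was called in the reported fit, except Stc1. In E1 versus control, Igfbp2 became 0.022 with normexp, 0.070 with slide fixed and 0.049 with slide random (-0.17 to 0.0038 without 1 array), and the dimmer Igfbp5 probe -0.037 with quantile, -0.0089 with the median, -0.016 in the deposited table and -0.17 with slide fixed (-0.025 to 0.11 without 1 array). Slide fixed also turned the dimmer Igfbp3 probe to -0.89, Igfbp4 to -0.086 (brighter) and -0.29 (dimmer) and Igfbp7 to 0.024. In ELF versus control, Pappa (brighter) became -0.064 with quantile, the dimmer Igfbp3 probe -2.14 with slide fixed and -0.55 with slide random, and with slide fixed Igfbp4 (brighter) became -0.075, Igfbp5 (dimmer) -0.29 and Stc1 -0.32. The dimmer Igfbp4 probe ran from -0.21 to 0.066 without 1 array. In ELF versus E1, Igfbp1 became -0.071 with quantile, -0.031 with the median and -0.019 in the deposited table (-0.050 to 0.12 without 1 array), Igfbp3 (brighter) -0.011 with normexp and -0.10 with slide fixed, and with slide fixed Igfbp4 (brighter) 0.011 and Igfbp5 (dimmer) -0.12. Without 1 array the dimmer Igfbp3 probe ran from -0.34 to 0.070, Igfbp4 (brighter) from -0.15 to 0.092 and the dimmer Pappa probe from -0.44 to 0.10. The last was not well above background on any E1 array, so these fitted values are no measured difference.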
